A study of Mus musculus with 3 samples.

Results

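The DNA repair genes described here are the mouse genes on the array whose symbols name the best known repair factors: the Rad, Xrcc, Brca, Fanc, Msh, Mlh, Ercc and Parp symbols. The choice rested on the symbol alone (Rad, Xrcc and Ercc followed by a digit, any Fanc symbol, Brca1 and Brca2, Msh and Mlh symbols with set digits, Parp1 to Parp3) and used no measured value. It took 45 of the 12393 genes that the array named through a probe set with 1 symbol, and they were read by 82 of the 20380 such probe sets. Of the matched genes, Rad21 is best known as a subunit of the cohesin ring that holds sister chromatids together, Ercc6l as a helicase of mitotic chromosomes, and Rad54l2 as a chromatin helicase, so the rule reached slightly past repair proper.

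Gene expression was measured in cultured bone marrow cells of C57/BL6 mice on 3 Affymetrix arrays, with 1 array per time. All 3 cultures had been grown with human M-CSF at 50 ng/ml for 3 days, which gives macrophages, the precursors of osteoclasts. Human RANKL, the cytokine that turns these precursors into bone-resorbing osteoclasts, was then given at 150 ng/ml for 0 h (labelled precursor), 24 h (labelled differentiating precursor) or 72 h (labelled osteoclast). There was no replicate, so no difference below has a replicate check or a p-value, and since a culture held without RANKL for the later times was not analysed here, the effect of RANKL and that of time in culture cannot be told apart.

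Cells mend DNA by several routes. Breaks across both strands are rejoined directly by end joining or copied from the sister chromatid by homologous recombination, which is used mainly after DNA has been replicated. The Fanconi anaemia proteins unhook crosslinks between strands, mismatch repair corrects copying errors behind the replication fork, and nucleotide excision repair cuts out bulky lesions such as those made by ultraviolet light. Many factors of recombination, mismatch repair and crosslink repair work at replication forks, and in many cell types their transcripts are more abundant in dividing cells. Osteoclast precursors are known to divide before they stop cycling and fuse.

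The labels of the cultures were checked against marker genes. The summed scaled signal of 8 osteoclast markers came to 1561 units at 0 h, 6898 units at 24 h and 31890 units at 72 h. That of 9 macrophage markers was 37220 units at 0 h, 17040 units at 24 h and 15430 units at 72 h, and all 9 were above the detection floor at every time. The cultures also held RNA of granulocyte precursors: 7 neutrophil precursor markers summed to 8458 units at 0 h, 5270 units at 24 h and 549 units at 72 h, with 7, 7 and 3 of them above the floor. Markers of erythroid, B, T and NK cells summed to between 35.5 and 161 units per list and time. The part of these other cells in the differences below was not tested.

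Values are microarray signal intensities scaled so that every array has the same median over its probe sets. The deposited arrays differed in scale, the median log2 signal of the 24 h array being up by 0.73 and that of the 72 h array by 0.77 relative to the 0 h array, so each change is relative to the median gene probe set. A floor was set at the 40th percentile of all signals (29.6 units). A gene was represented by its brightest probe set, and it counted as measured in a comparison if it was above the floor on at least 1 of the 2 arrays. It was called higher or lower at a 2-fold difference. The error used is technical, the SD between probe sets of 1 gene expressed per probe set. In log2 units it was 0.41 between 24 and 0 h (a factor of 1.33), 0.49 between 72 and 0 h (a factor of 1.41) and 0.36 between 72 and 24 h (a factor of 1.28). Variation from culture to culture is not part of it. The ratio of the 3′ to the 5′ Gapdh probe set, a sign of RNA length, took values of 1.19, 0.975 and 0.749 on the 0, 24 and 72 h arrays, and that of the actin probe sets values of 1.59, 1.38 and 1.20. The part of these ratios in the differences below was not tested.

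Repair gene promoters are shown for the members whose signals moved furthest at 24 h. Those of Rad51ap1, Brca1, Msh6, Rad1 and Rad23b belong to the genes with the largest increases that were listed in the promoter table, and those of Msh5 and Ercc4 to the 2 genes with the largest decreases among those above the floor on both arrays. Ercc6l also increased and is named only. Each sequence is RefSeq's of build GRCm38.p6, runs 5′ to 3′ along the gene's own strand, and covers 250 bases before the annotated start to 50 bases after it. Capitals mark CCAAT boxes (CCAAT or its reverse complement ATTGG) and 4 forms of the binding motif of E2F factors, which switch on genes at the start of DNA synthesis (TTTCCCGC, TTTGGCGC, TTTCGCGC and TTTGCCGC, searched on both strands).
Rad51ap1 (chr6:126939538-126939837, minus strand): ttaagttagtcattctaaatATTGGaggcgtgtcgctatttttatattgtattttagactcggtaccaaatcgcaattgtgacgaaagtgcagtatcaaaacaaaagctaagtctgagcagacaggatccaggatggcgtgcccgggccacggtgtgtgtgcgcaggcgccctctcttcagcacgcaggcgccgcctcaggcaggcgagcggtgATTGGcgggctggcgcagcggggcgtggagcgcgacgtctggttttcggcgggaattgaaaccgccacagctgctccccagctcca
Brca1 (chr11:101551906-101552205, minus strand): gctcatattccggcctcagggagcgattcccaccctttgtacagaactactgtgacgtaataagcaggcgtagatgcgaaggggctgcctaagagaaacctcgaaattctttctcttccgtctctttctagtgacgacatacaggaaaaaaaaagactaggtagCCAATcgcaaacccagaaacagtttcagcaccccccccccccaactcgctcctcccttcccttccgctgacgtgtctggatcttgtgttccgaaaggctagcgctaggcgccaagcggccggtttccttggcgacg
Msh6 (chr17:87974800-87975099, plus strand): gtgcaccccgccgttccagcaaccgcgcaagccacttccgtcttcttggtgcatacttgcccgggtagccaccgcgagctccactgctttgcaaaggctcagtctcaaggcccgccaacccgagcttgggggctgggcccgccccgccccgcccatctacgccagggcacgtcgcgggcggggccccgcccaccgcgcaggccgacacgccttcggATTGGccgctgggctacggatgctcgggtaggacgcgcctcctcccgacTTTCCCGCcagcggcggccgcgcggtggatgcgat
Rad1 (chr15:10485768-10486067, plus strand, the first of 2 listed starts): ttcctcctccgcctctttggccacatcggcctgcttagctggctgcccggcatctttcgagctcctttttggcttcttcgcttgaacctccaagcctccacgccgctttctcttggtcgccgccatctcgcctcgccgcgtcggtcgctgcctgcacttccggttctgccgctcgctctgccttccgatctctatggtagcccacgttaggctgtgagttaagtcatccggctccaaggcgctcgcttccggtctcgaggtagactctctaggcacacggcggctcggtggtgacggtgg
Rad23b (chr4:55349792-55350091, plus strand): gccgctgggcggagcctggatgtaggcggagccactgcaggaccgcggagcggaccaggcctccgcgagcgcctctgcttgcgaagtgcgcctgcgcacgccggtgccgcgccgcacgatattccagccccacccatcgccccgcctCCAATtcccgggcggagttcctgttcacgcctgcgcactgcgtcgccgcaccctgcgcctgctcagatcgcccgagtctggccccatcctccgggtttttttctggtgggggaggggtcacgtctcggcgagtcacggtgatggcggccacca
Msh5 (chr17:35046573-35046872, minus strand): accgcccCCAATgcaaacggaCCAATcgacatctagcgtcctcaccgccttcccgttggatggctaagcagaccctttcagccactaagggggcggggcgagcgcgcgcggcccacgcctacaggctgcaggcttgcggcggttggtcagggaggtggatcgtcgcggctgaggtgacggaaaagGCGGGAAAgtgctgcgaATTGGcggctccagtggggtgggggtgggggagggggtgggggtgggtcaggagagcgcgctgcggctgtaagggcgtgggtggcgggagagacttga
Ercc4 (chr16:13109486-13109785, plus strand): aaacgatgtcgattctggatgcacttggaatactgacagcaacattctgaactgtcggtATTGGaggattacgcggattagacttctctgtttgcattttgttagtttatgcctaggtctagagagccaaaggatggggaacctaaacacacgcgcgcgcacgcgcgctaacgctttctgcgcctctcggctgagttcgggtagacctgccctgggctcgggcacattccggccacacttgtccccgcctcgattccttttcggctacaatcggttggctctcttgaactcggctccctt

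Among the promoters printed above, those of Msh6 and Msh5 hold an E2F form, and those of Rad51ap1, Brca1, Rad23b and Ercc4 hold CCAAT boxes only, and that of Rad1 holds neither. The table listed 44 promoters for 38 of the 45 repair genes. An E2F form was present in 8 of these 44 promoters (18.2%), from 7 genes, and in 744 of all 32851 promoters of the table (2.26%) or 607 of 21262 promoters of protein-coding genes (2.85%). The 7 genes were Brca2, Fancg, Msh3, Msh5, Msh6, Rad51c and Xrcc6. In Msh3 the forms TTTGGCGC and GCGCGAAA (the reverse complement of TTTCGCGC) overlap. A CCAAT box was present in 25 of 44 repair gene promoters (56.8%), in 37.4% of all promoters and in 38.2% of those of protein-coding genes. The letters TTTGAA, the core of the element that delays genes to late in the cell cycle, were present in 3 of 44 (6.82%). This compares with 17.9% of all promoters and 16.0% of those of protein-coding genes. Repair gene promoters had a median G and C content of 58.3%, against 52.7% for all promoters and 56.3% for those of protein-coding genes. E2F forms were present in 3 of 15 promoters of the members that were 2-fold higher at 24 h and in 5 of 29 promoters of the other members, among them Msh5, which was lower at 24 h. These other members take in genes not measured, among them Rad51c, whose 2 listed promoters both hold an E2F form. These matches are descriptions of letters in a window and show no binding.

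At 24 h of RANKL, 13 of the 41 measured repair genes exceeded their 0 h signal by 2-fold or more, where 13.2% of all measured genes did. Of the 41, 1 (Msh5) was called 2-fold lower, where 9.22% of all genes were. The shift reached beyond these: 37 of 41 members lay above zero (90.2%, against 56.9% of all genes). Their median log2 difference was 0.51 against 0.12 over all genes. For 22 of 41 members the increase exceeded the technical SD (53.7%, against 35.0% of all genes). In these bulk cultures, a larger share of cells with a transcript and more of it per cell cannot be told apart.

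By 72 h most of these increases were gone. Of 40 measured members, 10 were at least 2-fold lower at 72 h than at 24 h, where 10.0% of all genes were. No member was 2-fold higher, where 6.92% of all genes were, and the median log2 difference was -0.64 for members and -0.14 for all genes. Set against 0 h, the 72 h culture had 2 members that were 2-fold higher (12.5% of all genes) and 3 that were 2-fold lower (12.8%), with a median of -0.06. Thus 32 of the 41 members above the floor at some time had their highest signal at 24 h (78.0%, against 38.2% of all genes), 4 at 0 h and 5 at 72 h. The comparisons share arrays, so these counts are not independent of each other.

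A peak at 24 h of at least 2-fold over both other times was present for 9 of 41 members (22.0%), against 3.81% of all genes. These were the recombination genes Brca1, Rad51ap1 and Rad54l, the mismatch gene Msh6, the end joining gene Xrcc6, the clamp gene Rad1, the Fanconi gene Fancc, the lesion sensor partner Rad23b and the mitotic helicase Ercc6l. They came from 6 of the repair routes and from the genes best known for other tasks. Of the 13 members called higher at 24 h, 6 kept the call under all 9 other scalings, floors and probe set choices, namely Brca1, Ercc6l, Msh6, Rad23b, Rad51ap1 and Xrcc6. Of the 10 called lower at 72 h than at 24 h, 7 did so, namely Brca1, Ercc6l, Msh6, Parp1, Rad51ap1, Rad54l and Xrcc6. Ercc6l, Msh6 and Xrcc6 are read by 1 probe set each, so the probe set choices could not change their values. All members named as keeping a call were above the floor on all 3 arrays, so a lower floor or none could not change theirs. None of the calls at 72 h against 0 h and not that of Msh5 at 24 h held under all 9 settings.

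**Figure D1:**
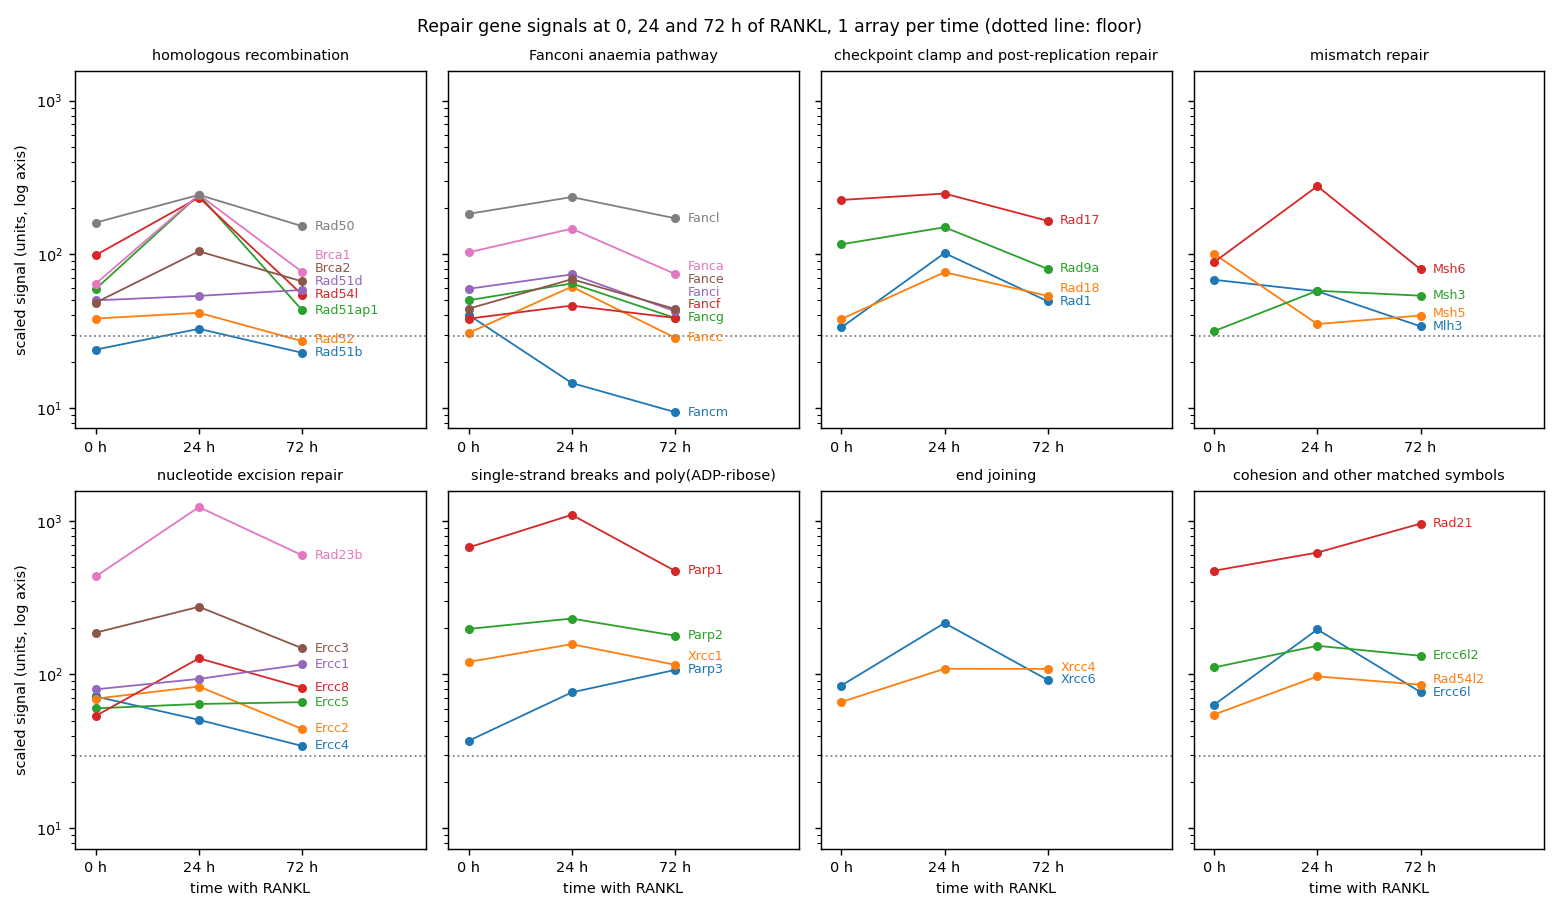
Scaled signal of each of the 41 repair genes above the floor at some time, on a log axis, at 0, 24 and 72 h of RANKL, with 1 array per point and 1 panel per repair route. Of the 41 lines, 32 have their highest point at 24 h, while Rad21 and Parp3 are highest at 72 h and Msh5, Mlh3, Ercc4 and Fancm at 0 h.

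The 2 largest increases at 24 h were those of homologous recombination genes. At 24 h against 0 h, 4 of its 8 measured genes were called higher and none lower, where 13.2% and 9.22% of all genes were, around a median log2 difference of 0.85. Rad51ap1, an accessory protein of recombination, had 59.5 units at 0 h, 244 units at 24 h and 43.2 units at 72 h, so it was 4.10-fold higher at 24 h than at 0 h and 5.64-fold lower at 72 h than at 24 h. Brca1, the breast cancer protein that steers breaks towards recombination, had 64.3 units at 0 h, 244 units at 24 h and 76.7 units at 72 h. The Brca1 signal was 3.80-fold higher at 24 h than at 0 h and 3.18-fold lower at 72 h than at 24 h. Both genes were back within the technical error of their 0 h signal at 72 h.

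Rad54l, a DNA-dependent motor protein of recombination, had 98.7 units at 0 h, 234 units at 24 h and 54.6 units at 72 h. It was 2.37-fold higher at 24 h than at 0 h and 4.29-fold lower at 72 h than at 24 h. Brca2, the other breast cancer protein, which acts in the same route, had 48.5 units at 0 h, 105 units at 24 h and 66.6 units at 72 h, 2.16-fold higher at 24 h than at 0 h. Both had their highest signal at 24 h, and Rad54l at 72 h lay under its starting signal. Rad50, a member of the complex that trims broken ends, had 161 units at 0 h, 244 units at 24 h and 152 units at 72 h, a 1.52-fold difference at 24 h that did not reach 2-fold. The recombination proteins Rad51b and Rad51d and the annealing protein Rad52 stayed between 22.8 and 58.6 units at all times by the probe sets that represent them, and Rad51c was under the floor on all 3 arrays.

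In the Fanconi anaemia pathway 1 of 8 measured genes was 2-fold higher at 24 h than at 0 h (12.5%, where 13.2% of all genes were), a share near that of all genes. For 3 of 8 (37.5%, where 35.0% of all genes were) the increase exceeded the technical SD, and the median log2 difference was 0.36. Fancc, a subunit of the core complex that marks crosslinks, had 30.7 units at 0 h, 61.5 units at 24 h and 28.6 units at 72 h, so it was 2.0-fold higher at 24 h than at 0 h and at least 2.08-fold lower at 72 h than at 24 h, close to the floor throughout. Fanca, another core subunit, had 103 units at 0 h, 147 units at 24 h and 74.5 units at 72 h. Fancl, the subunit that attaches ubiquitin, had 183 units at 0 h, 236 units at 24 h and 172 units at 72 h. Neither Fanca nor Fancl reached 2-fold. Fancm, the helicase that recruits the core complex, had 40.3 units at 0 h and was under the floor at 24 and 72 h. Fancm was thus at least 1.36-fold lower at 24 h than at 0 h, with a log2 difference of -1.47 when the floor was set at the 20th percentile or left out. The remaining members, Fance, Fancf, Fancg and Fanci, lay between 38.1 and 73.9 units.

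The checkpoint clamp is a ring loaded at damaged DNA. Rad1, one of its 3 subunits, had 33.4 units at 0 h, 102 units at 24 h and 49.4 units at 72 h. Rad1 was 3.05-fold higher at 24 h than at 0 h and 2.06-fold lower at 72 h than at 24 h. Its partner Rad9a had 116 units at 0 h, 150 units at 24 h and 80.2 units at 72 h, and the clamp loader Rad17 had 226 units at 0 h, 249 units at 24 h and 165 units at 72 h. Rad9a and Rad17 stayed within 2-fold. The Rad1 signal at 0 h was close to the floor, and with the floor at the 60th percentile its log2 difference at 24 h against 0 h was 0.14 in place of 1.61. Rad18, the ligase that tags the replication clamp at stalled forks, had 37.9 units at 0 h, 76.4 units at 24 h and 53.6 units at 72 h, 2.02-fold higher at 24 h than at 0 h.

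Of 4 measured genes of the mismatch repair family, 1 was 2-fold higher and 1 was 2-fold lower at 24 h than at 0 h, where 13.2% and 9.22% of all genes were. Msh6, which recognises mismatched bases, had 88.9 units at 0 h, 278 units at 24 h and 79.7 units at 72 h. It was 3.12-fold higher at 24 h than at 0 h and 3.48-fold lower at 72 h than at 24 h. Msh5, which works in meiotic crossing over rather than in mismatch correction, had 101 units at 0 h, 35.1 units at 24 h and 39.9 units at 72 h, below its 0 h signal by 2.86-fold at 24 h and by 2.52-fold at 72 h. The log2 difference of Msh5 at 24 h against 0 h, -1.52, was -0.76 without multi-transcript probe sets, -0.79 on the deposited scale and -0.12 with the floor at the 60th percentile. Mlh3, which acts in mismatch repair and meiotic crossing over, had 68.2 units at 0 h, 57.4 units at 24 h and 33.9 units at 72 h, 2.01-fold lower at 72 h than at 0 h. Msh3, which recognises larger loops, had 31.6 units at 0 h, 57.9 units at 24 h and 53.7 units at 72 h, and Msh4 was under the floor on all arrays.

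Nucleotide excision repair had 7 measured genes, of which 2 were 2-fold higher at 24 h than at 0 h, where 13.2% of all genes were. Rad23b, which stabilises the damage sensor Xpc and also carries ubiquitinated proteins to the proteasome, had 435 units at 0 h, 1230 units at 24 h and 597 units at 72 h. Rad23b was 2.83-fold higher at 24 h than at 0 h and 2.06-fold lower at 72 h than at 24 h. Ercc8, part of the ligase that acts on lesions in transcribed genes, had 53.7 units at 0 h, 127 units at 24 h and 82.0 units at 72 h, 2.37-fold higher at 24 h than at 0 h. Ercc8 stayed under 2-fold with averaged probe sets (log2 difference 0.51) and with the floor at the 60th percentile (0.46). Ercc4, which cuts on the 5′ side of a lesion, had 71.9 units at 0 h, 50.6 units at 24 h and 34.2 units at 72 h, 2.10-fold lower at 72 h than at 0 h. Ercc1, its obligate partner, had 80.0 units at 0 h, 93.6 units at 24 h and 116 units at 72 h. The 2 subunits of this nuclease thus differed at 72 h against 0 h, with log2 differences of -1.07 for Ercc4 and 0.54 for Ercc1. The Ercc1 difference was within 2-fold and close to the technical SD of 0.49. The Ercc4 signal at 72 h was close to the floor, and its log2 difference was -0.535 with averaged probe sets. On the deposited scale the differences were -0.30 for Ercc4 and 1.31 for Ercc1. Ercc3, a helicase of the general transcription factor TFIIH, had 187 units at 0 h, 276 units at 24 h and 148 units at 72 h. The other TFIIH helicase, Ercc2, and the nuclease Ercc5 lay between 44.2 and 83.4 units.

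Of the end joining genes, Xrcc6, which encodes the Ku70 subunit of the Ku ring that clasps broken ends, had 84.7 units at 0 h, 216 units at 24 h and 92.1 units at 72 h. Xrcc6 was 2.55-fold higher at 24 h than at 0 h and 2.35-fold lower at 72 h than at 24 h. Xrcc5, which encodes the Ku80 subunit, was under the floor on all arrays, with 1.69 units at 0 h, 21.3 units at 24 h and 29.2 units at 72 h, so no fold is given for it. A reading under the floor is only a bound and says nothing of whether the gene was expressed. Xrcc4, the scaffold of the ligase of this route, had 66.2 units at 0 h and 109 units at both 24 and 72 h.

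The poly(ADP-ribose) polymerases, which mark strand breaks with chains of ADP-ribose, differed among themselves. Parp1, the main enzyme, had 671 units at 0 h, 1095 units at 24 h and 473 units at 72 h, and was 2.32-fold lower at 72 h than at 24 h. Parp3 had 36.9 units at 0 h, 76.4 units at 24 h and 107 units at 72 h, above its 0 h signal by 2.07-fold at 24 h and by 2.90-fold at 72 h. At 72 h, Parp3 was thus above its 0 h signal and Parp1 below it. The Parp1 log2 difference of -0.505 was within 2-fold and close to the technical SD of 0.49. On the deposited scale it was 0.27. The Parp3 call at 72 h against 0 h was lost with averaged probe sets and with the floor at the 60th percentile. Parp2 had 198 units at 0 h, 231 units at 24 h and 179 units at 72 h, and Xrcc1, the scaffold of single-strand break repair, had 121 units at 0 h, 157 units at 24 h and 116 units at 72 h, both within 2-fold throughout.

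Among the matched genes best known for other tasks, Rad21 did not follow the peak at 24 h. Rad21 had 474 units at 0 h, 622 units at 24 h and 960 units at 72 h, 2.03-fold higher at 72 h than at 0 h. Ercc6l had 63.5 units at 0 h, 196 units at 24 h and 76.7 units at 72 h, 3.09-fold higher at 24 h than at 0 h and 2.56-fold lower at 72 h than at 24 h. Ercc6l thus peaked at 24 h, as Brca1 and Rad51ap1 did. Rad54l2 had 54.8 units at 0 h, 97.1 units at 24 h and 85.8 units at 72 h. Ercc6l2, which was not placed in any of the routes above, had 111 units at 0 h, 154 units at 24 h and 132 units at 72 h. Without Rad21, Ercc6l and Rad54l2, a choice made after seeing the data, 12 of 38 measured genes were 2-fold higher at 24 h than at 0 h (13.2% of all genes were), 9 of 37 were 2-fold lower at 72 h than at 24 h (10.0%), and 1 of 37 was 2-fold higher at 72 h than at 0 h (12.5%).

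**Figure D2:**
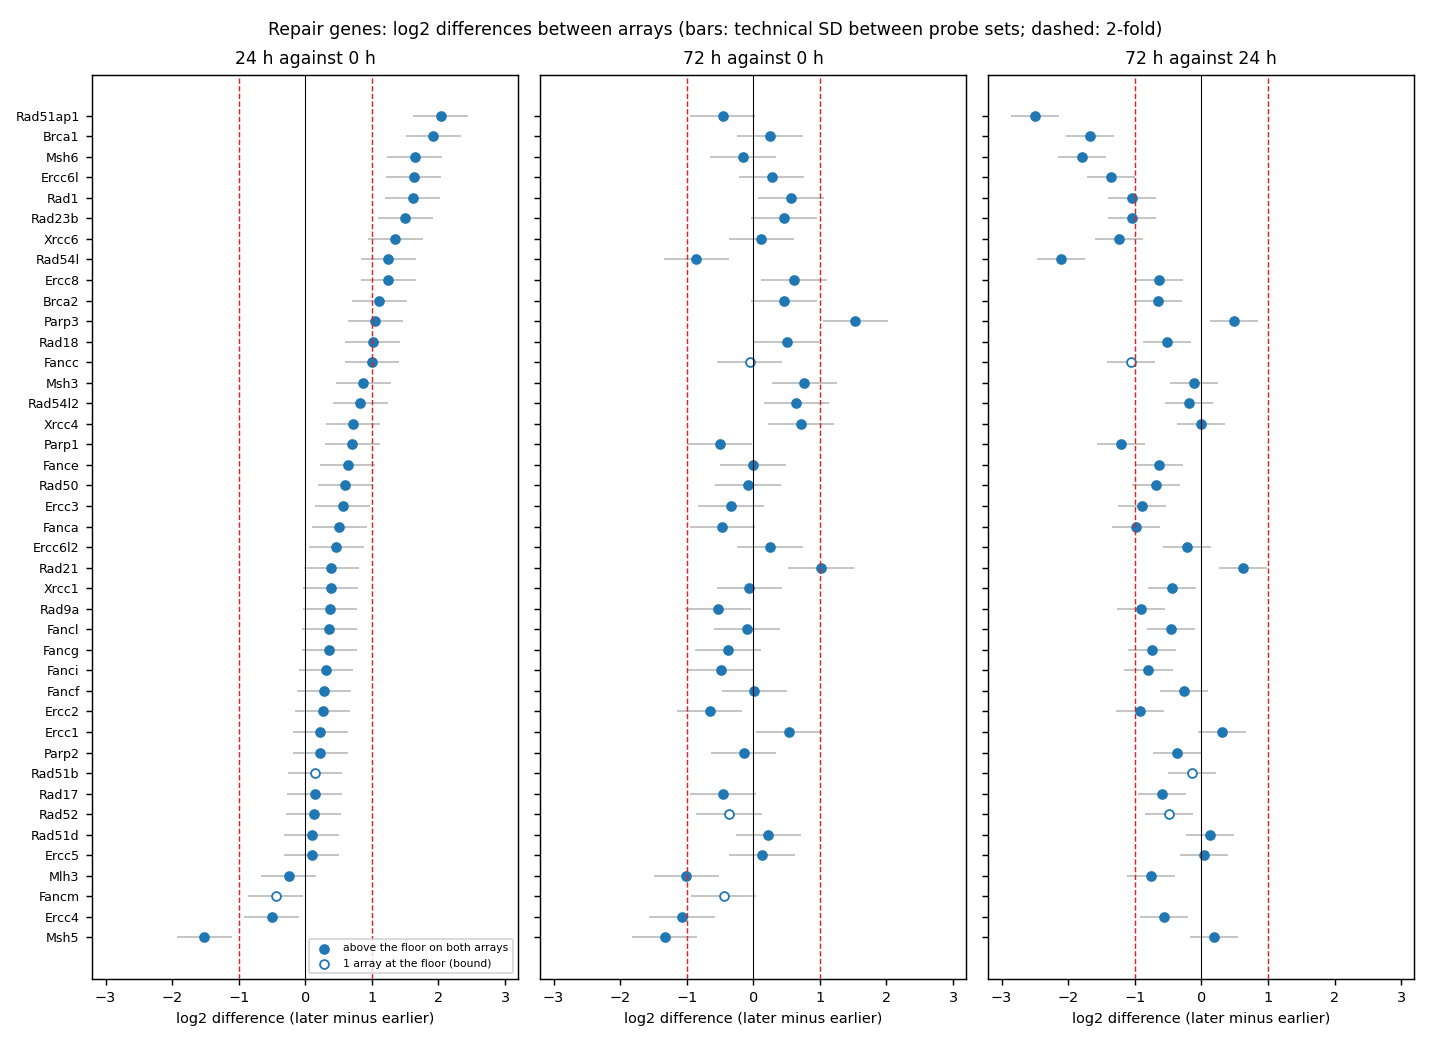
Log2 differences of the repair genes (later minus earlier array; bars are the technical SD between probe sets of a gene, dashed lines mark 2-fold, open points have 1 array at the floor). The points run to the right of zero for 24 h against 0 h (37 of 41), straddle it for 72 h against 0 h (18 of 40 above) and lie to its left for 72 h against 24 h (34 of 40). Of all genes, 56.9%, 49.2% and 40.5% lay above zero in these comparisons.

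Some members lay near the 2-fold line. At 24 h against 0 h, Fancc lay just inside it with a log2 difference of 1.0 and Msh3 just outside with 0.87. At 72 h against 24 h, Rad1 lay just inside with -1.04 and Fanca just outside with -0.98. At 72 h against 0 h, Rad21 (1.02) and Mlh3 (-1.01) lay just inside and Rad54l (-0.86) just outside. None of these is separated from the line by more than the technical SD.

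Probe sets of the same gene gave a check of the calls. For 24 h against 0 h, 18 members had at least 2 measured probe sets, of which 12 had all of them on the same side of zero and 9 gave the same call with each, while 0 had opposite calls. Of these 9, Rad18 and Rad23b were called higher by each probe set, and the others were within 2-fold by each. The called members Brca1, Ercc8, Fancc, Msh5, Parp3, Rad51ap1 and Rad54l each had a probe set that did not give the call. Rad51ap1 lay above zero by all 4 of its probe sets, with log2 differences from 0.93 to 2.04. Of the 4 Brca1 probe sets, 3 gave log2 differences from 1.39 to 1.92, and the fourth, with signals of 31.6 units at 24 h and 38.0 units at 0 h close to the floor, gave -0.27. All 3 Rad54l probe sets gave higher values at 24 h, by 0.80 to 1.25. A probe set with 1 array under the floor counts here at its bound. These 3 recombination genes thus kept their direction in all but 1 probe set.

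Other members rested on 1 probe set. The second probe set of Parp3 gave a log2 difference of -0.02 at 24 h against 0 h, beside 1.05 for the one that represents the gene, and 0.39 beside 1.53 at 72 h against 0 h. The second probe set of Fancc gave 0.05 beside 1.0 at 24 h against 0 h, and 0.53 beside -1.06 at 72 h against 24 h. For Rad51d it was the other way round, with at least 1.06 from the second probe set at 24 h against 0 h and 0.10 from the one that represents the gene. The calls for Parp3 and Fancc and the lack of one for Rad51d therefore depend on which probe set is read. Xrcc4 and Msh3 were not called, but their probe sets differed in sign at 24 h against 0 h. A second probe set gave -0.12 beside 0.72 for Xrcc4. For Msh3 it gave -0.05, a bound at the floor, beside 0.87. Both Msh5 probe sets were lower at 24 h than at 0 h, by 1.52 and 0.76, the 3 Rad21 probe sets gave 0.92 to 1.59 at 72 h against 0 h, and the 3 Parp1 probe sets gave -1.93 to -0.91 at 72 h against 24 h.

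**Figure D3:**
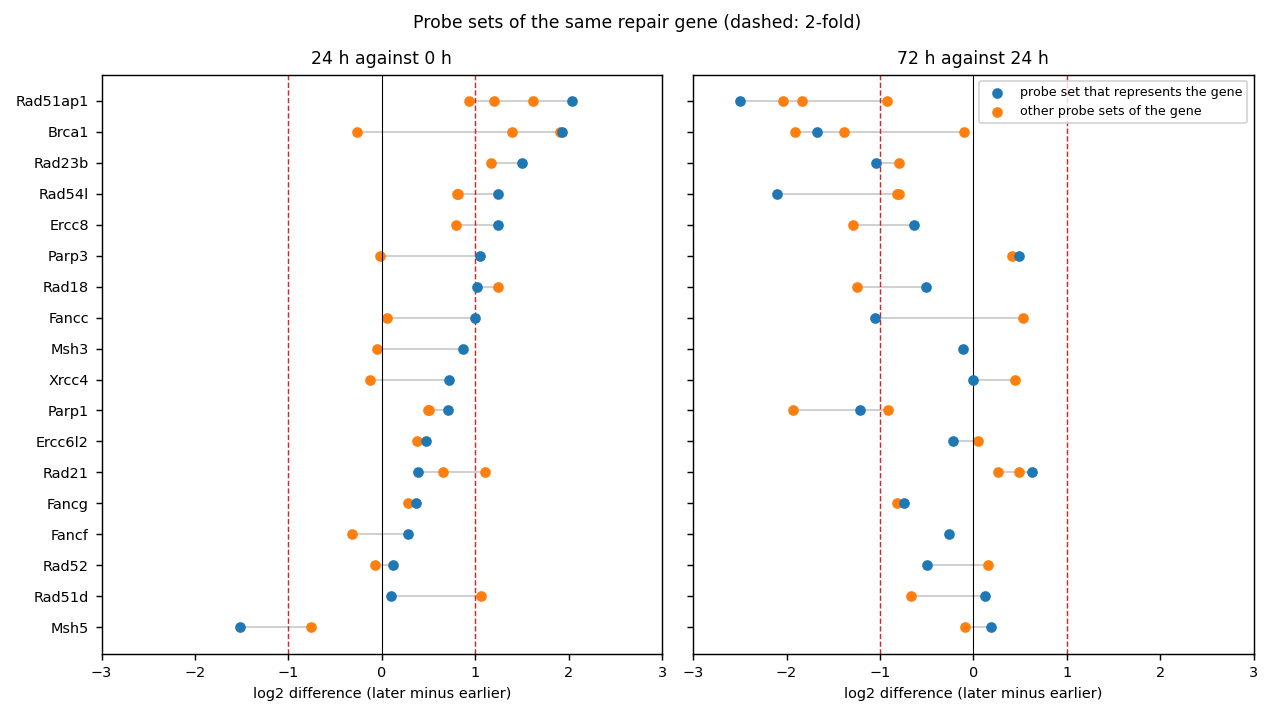
Log2 differences of every measured probe set of the repair genes that have at least 2 of them (later minus earlier array; the probe set that represents the gene in blue, its others in orange, dashed lines at 2-fold). For 24 h against 0 h the 4 Rad51ap1 probe sets lie to the right of zero, from 0.93 to 2.04, while those of Brca1, Parp3, Fancc and Rad51d reach down to between -0.27 and 0.10.

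Of the other repair genes, 78 from 7 lists of named factors were on the array. Of 75 measured, 20 passed 2-fold upward and 0 downward at 24 h against 0 h (median log2 difference 0.58), and 0 passed it upward and 21 downward at 72 h against 24 h (median -0.59). Over all genes, 13.2% were higher and 9.22% lower at 24 h against 0 h. For 72 h against 24 h, 6.92% of all genes were higher and 10.0% lower. Base excision repair had 6 of 15 genes 2-fold higher at 24 h, among them Apex1, which nicks DNA where a base was lost (4.20-fold, with 2159 units at 24 h against 514 units at 0 h), Fen1, which trims DNA flaps (4.17-fold), the uracil remover Ung (3.30-fold) and the DNA ligase Lig1 (3.04-fold). In the damage checkpoint list 5 of 13 were higher at 24 h and 7 of 13 lower at 72 h than at 24 h, and the kinase Chek1 was 3.88-fold and the fork protection partners Timeless and Tipin were 3.00-fold and 2.99-fold higher at 24 h than at 0 h.

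Of the further break repair factors, 4 of 18 were 2-fold higher at 24 h than at 0 h (22.2%, where 13.2% of all genes were). They were led by Psmc3ip, which assists strand exchange (3.83-fold), the nuclease Exo1 (3.78-fold) and the helicase Blm (2.84-fold). The mismatch repair factor Pms2 was 2.37-fold higher. Of the 3 subunits of RPA, which coats single-stranded DNA, Rpa3 was 2.36-fold higher at 24 h than at 0 h. All 3 were 2-fold lower at 72 h than at 24 h, where 10.0% of all genes were. Of the other nucleotide excision genes, 0 of 11 passed 2-fold at 24 h in either direction, where 13.2% of all genes were higher and 9.22% lower. Of these 11, 9 lay above zero (81.8%, against 56.9% of all genes), with a median of 0.36. Translesion and direct repair had 3 of 14 higher at 24 h (21.4%, where 13.2% of all genes were). The median there was -0.11, against 0.12 over all genes. At 72 h against 0 h, 4 of the 75 other repair genes were 2-fold lower (5.33%, against 12.8% of all genes). Only 1 was 2-fold higher (1.33%, against 12.5%). The damage kinase Atm (2.45-fold), the lesion sensor Xpc (2.45-fold) and Rpa2 (2.30-fold) were among the lower ones. Brcc3, a deubiquitinase of the Brca1 complex, was 2.27-fold higher.

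Genes of DNA replication and mitosis give the scale of the change in cycling genes at the same times. Among 33 measured replication genes, 27 passed 2-fold upward and 0 downward at 24 h against 0 h, where 13.2% and 9.22% of all genes did. The median log2 difference was 1.54. At 72 h against 24 h, 26 were lower (10.0% of all genes were), with a median of -1.70. Of 29 mitosis genes, 18 were higher at 24 h than at 0 h, with a median of 1.09, and 28 were lower at 72 h than at 24 h, with a median of -1.87. Tk1, which makes thymidine monophosphate, was 5.42-fold and the replication licensing factor Cdc6 was 5.34-fold higher at 24 h than at 0 h. The repair genes' medians of 0.51 and -0.64 had the same signs and were smaller, and the part of cell division in their change was not tested. At 72 h against 0 h the median was -0.18 for replication, -0.74 for mitosis and -0.06 for the repair genes.

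Targets of p53, the transcription factor that DNA damage activates, had their highest signal at 0 h for 8 of 13 genes, at 24 h for 2 and at 72 h for 3. Over all genes the shares were 32.8%, 38.2% and 29.0%. Among these 13 measured, 0 passed 2-fold upward and 5 downward at 24 h against 0 h, where 13.2% and 9.22% of all genes did. At 72 h against 0 h, 1 passed it upward and 4 downward, where 12.5% and 12.8% of all genes did. The increase at 24 h against 0 h exceeded the technical SD for 3 of 13 (23.1%, against 35.0% of all genes). The decrease did so for 6 of 13 (46.2%, against 23.3%). Sesn1, a stress-induced inhibitor of mTORC1 signalling, was lower than at 0 h by 6.91-fold at 24 h and by 9.24-fold at 72 h. Btg2, an antiproliferative factor, was lower than at 0 h by 4.31-fold at 24 h and by 7.46-fold at 72 h. Pmaip1, which encodes the cell death protein Noxa, was 3.99-fold higher at 72 h than at 0 h. Cdkn1a, the p53 target that halts the cell cycle, had 775 units at 0 h, 664 units at 24 h and 467 units at 72 h, within 2-fold throughout.

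**Figure D4:**
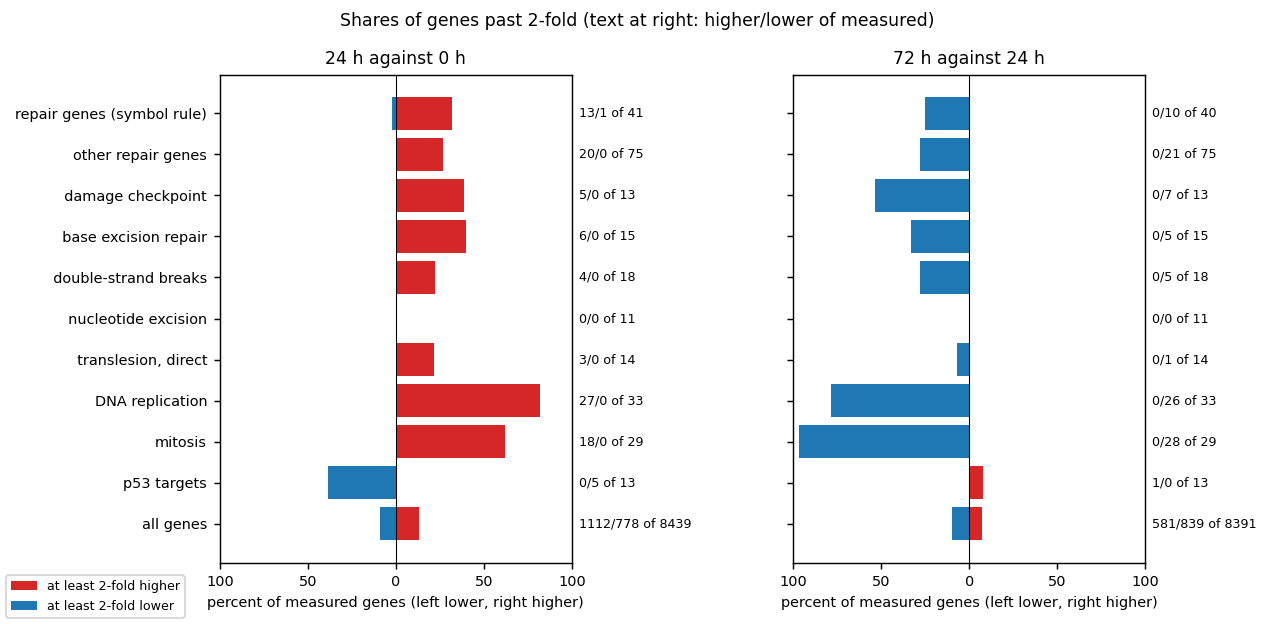
Share of measured genes at least 2-fold higher (red, to the right) or lower (blue, to the left) for the repair genes, the other repair lists, DNA replication, mitosis, p53 targets and all genes, in percent, with the counts beside each bar. For 24 h against 0 h, 13 of 41 repair genes, 27 of 33 replication genes and 18 of 29 mitosis genes lie to the right, and for 72 h against 24 h, 10 of 40, 26 of 33 and 28 of 29 lie to the left. The nucleotide excision list has no bar in either comparison.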

How the data were processed

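Expression was measured in 3 mouse cultures, 1 array each. The deposited values are signal intensity on a linear scale, which the authors made with MAS5, per the submitters' processing notes (no version is named). Gene symbols came from the platform annotation of 2016. Log2 values of the deposited intensity were computed, and each array was centred on the median of its 22626 gene probe sets. The floor was the 40th percentile over all arrays. A gene was read by its brightest probe set with 1 symbol. It was called at a log2 difference of 1, and a fold with 1 side at the floor is written "at least". Python 3.11.15, numpy 2.4.6, pandas 2.3.3 and matplotlib 3.10.9 were used. The calling was tested on simulated data, with changes larger than 2-fold put into genes well above the floor. That test does not cover calls near the floor or near the 2-fold line. The members and lists were chosen with earlier results of these data known.

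Values at each time were given for members past 2-fold, for those above the floor on every array with over 100 units on the highest, and for those whose probe sets disagreed. Of each other list, up to 4 genes with the largest differences at 24 h and at 72 h against 0 h could be named; Cdkn1a was named after its values were seen. Promoters were printed for the 5 largest increases and the 2 largest decreases at 24 h in RefSeq's table (GRCm38.p6) outside 1 excluded chromosome. All 45 members matched RefSeq by gene identifier. Alternatives were the deposited scale, quantile normalization, a 2% trimmed mean, scaling to 18 hybridization control probe sets, floors at the 20th and 60th percentile and none, averaged probe sets, no multi-transcript probe sets, and a call at 1.5. With 1 array per time no test was possible, and precision is limited by that number.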

Additional observations from a re-analysis of the deposited data

How the results depend on the processing

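No paired analysis was possible because each time has 1 array and no test was made. The median log2 difference of the repair genes kept its sign for 24 h against 0 h (0.31 to 1.21 over the alternatives) and for 72 h against 24 h (-0.77 to -0.47). For 72 h against 0 h it ran from -0.18 to 0.69, above zero on the deposited scale only, where all genes had a median of 0.68. On that scale the median was 1.21 for 24 h against 0 h, where all genes had 0.79. By the alternative's construction these include the difference in scale between arrays.

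Counts of members past 2-fold that moved by more than a factor of 1.5 are given below by setting. The causes were not tested except where the scale, floor or threshold itself sets the count. Under the other settings, the count higher at 24 h than at 0 h ran from 9 with the trimmed mean or averaged probe sets to 16 with no floor. All-gene shares there were 9.13%, 10.9% and 16.2%. The count lower at 72 h than at 24 h ran from 7 with the trimmed mean to 14 with hybridization controls. All-gene shares there were 8.72% and 13.1%. Higher at 24 h than at 0 h were 28 on the deposited scale, 7 with the floor at the 60th percentile and 6 with the call at 1.5, against 13. The shares of all genes were 39.0%, 13.2% and 5.11%, against 13.2%, and 25 members in place of 41 were measured with the floor at the 60th percentile. Lower at 24 h were 0 on the deposited scale, with the floor at the 60th percentile and without multi-transcript probe sets, against 1. There were 2 (Msh5 and Fancm) with the floor at the 20th percentile or none. The shares of all genes were 3.71%, 8.35%, 9.28%, 11.9% and 15.2% in that order, against 9.22%. Higher at 72 h than at 0 h were 14 on the deposited scale (35.0% of members, and 35.0% of all genes) and 4 with no floor (16.0% of all genes), against 2 (12.5%). The count was 1 with quantile normalization, the trimmed mean, hybridization controls, the floor at the 60th percentile, averaged probe sets or no multi-transcript probe sets. It was also 1 with the call at 1.5 and without Rad21, Ercc6l and Rad54l2. Of all genes, 6.13% were higher with the call at 1.5 and 10.4% to 12.5% under the others. Lower at 72 h than at 0 h were 0 on the deposited scale, with the floor at the 60th percentile and with the call at 1.5, against 3. The shares of all genes were 5.33%, 11.3% and 6.71%, against 12.8%. Lower at 72 h than at 24 h were 4 with the call at 1.5 (10.0% of members, and 3.38% of all genes), against 10 (25.0% and 10.0%). Members near the floor, such as Fancc, Rad1 and Rad18, have signals that limit what these arrays can show.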
